A study of Homo sapiens with 13 samples.

Results

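The 8 genes described here encode the Nodal and activin ligands expressed by human pluripotent cells together with the proteins that help or block them. They were taken by name from 61541 genes in the count tables and were chosen for their roles, with earlier results of these data known. NODAL and GDF3 encode TGFβ-family ligands. INHBA, INHBB and INHBE encode inhibin beta chains, and dimers of the INHBA or INHBB product are activins. TDGF1 (also called CRIPTO) encodes the co-receptor through which Nodal reaches its activin receptors, and LEFTY1 and LEFTY2 encode secreted Nodal antagonists.

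Nodal and activin bind type I and type II activin receptors, which phosphorylate SMAD2 and SMAD3. These join SMAD4 and act in the nucleus with partners such as FOXH1. NODAL, LEFTY1 and LEFTY2 are themselves known targets of this pathway, so that the ligand sustains its own expression and its own antagonists, and in pluripotent stem cells the pathway is known to maintain NANOG. BMP4 uses other type I receptors and SMAD1, SMAD5 and SMAD9, but shares SMAD4.

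All 13 libraries came from RUES2, a human embryonic stem cell line, in a derivative whose SMAD4 carries GFP (GFP::SMAD4 fusion), in mTeSR1 pluripotency medium with ROCK inhibitor. In the time series, 7 libraries held cells given 100 ng/mL BMP4 and 5 uM IWP2, an inhibitor of Wnt secretion, for 0 h (2 libraries) or for 4, 12, 20, 28 and 42 h (1 library each). The 0 h libraries carry the same treatment label and were read as cells taken when treatment began. In the dose response, 6 libraries were made at 5 h: BMP4 with IWP2 plus the BMP receptor inhibitor LDN-193189 (LDN) at 0, 10, 30, 100 or 300 nM, and untreated cells in mTeSR. The untreated cells lacked both BMP4 and IWP2, so the parts of the 2 agents cannot be told apart. All results concern 1 cell line, and no label says that the 0 h libraries came from separate cultures, so p-values measure only the spread between these libraries. The experiments differed in RNA extraction kit and library preparation (ribosomal RNA depletion for time, polyA selection for dose), and levels are not compared between them.

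The time-series libraries held 37957385 to 71333471 counts each, with a median of 59083013. Those of the dose response held 15600931 to 33989998, with a median of 31810852. Levels are given as CPM, the count scaled to the library total, and 3 counts, the limit that a count of 0 would allow, corresponded to 0.0421 to 0.079 CPM and 0.0883 to 0.192 CPM. Intervals and floors cover counting error only. Mitochondrial genes took 7.60% of counts in 0 h replicate 1 and 7.89% in untreated cells, against 2.01% to 4.49% in the other 11 libraries, and the part of this difference in the results was not tested. As a check of the cell type, 8 pluripotency markers summed to 7541 and 8034 CPM at 0 h and to 3917 CPM at 42 h, when 5 of the 8 had fallen. The sum of 8 amnion markers was 14.1 CPM in each 0 h library and 4557 CPM at 42 h, when all 8 had risen. Of these, VTCN1 averaged 1.63 CPM over the time series and reached the mean of 1 CPM needed for testing only through its 10.1 CPM at 42 h. The 7 primitive streak markers summed to 2.19 to 6.09 CPM over all 13 libraries. Single markers moved both ways within this sum. From their 0 h means, EOMES went from 0.260 to 3.52 CPM at 20 h and SOX17 from 0.0676 to 1.49 CPM at 28 h. FOXA2 went from 3.05 to 0.0717 CPM at 12 h. In bulk RNA, fewer cells expressing a gene and less RNA per cell cannot be told apart.

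TDGF1 was the most abundant of the 8 transcripts by far. Per length, in the deposited FPKM (fragments scaled for gene length and depth), its level at 0 h was 455 ± 0.877 (SD, n = 2), followed by LEFTY1 at 13.2 ± 2.45, GDF3 at 5.92 ± 0.0566, LEFTY2 at 4.90 ± 1.70, NODAL at 4.58 ± 1.44, INHBE at 4.26 ± 0.559, INHBA at 0.825 ± 0.290 and INHBB at 0.270 ± 0.0141. The neighbouring pairs GDF3 and LEFTY2, LEFTY2 and NODAL, and NODAL and INHBE did not differ beyond the spread of the 0 h libraries. The order was different at 12 h. GDF3 then stood second at 15.3 FPKM, behind TDGF1 at 285, and LEFTY1 was last at 0.39 FPKM. At 42 h TDGF1 was at 9.06 FPKM, and no other member exceeded the 0.72 FPKM of GDF3.

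The time series asked how these genes moved while BMP4 acted with Wnt secretion blocked. LEFTY1 and INHBB were the members called at 4 h, in opposite directions. The other 6 were not called then, which does not show that they had not moved. GDF3 rose transiently, with the rise called at 12 h, and by 42 h every one of the 8 was below its 0 h level. A linear trend with hours was fitted over the 7 libraries, with the error taken from the residual scatter, and single times were set against 0 h in a second fit, where the error came from the 0 h pair and the lone later libraries were assumed to vary like that pair. Both used the quasi-likelihood test of edgeR, Benjamini-Hochberg adjusted over the 15976 genes averaging 1 CPM or more, a filter that all 8 members passed, and a call means an adjusted p under 0.05. Changes are log2 values after TMM scaling, which corrects for library composition.

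**Figure D1:**
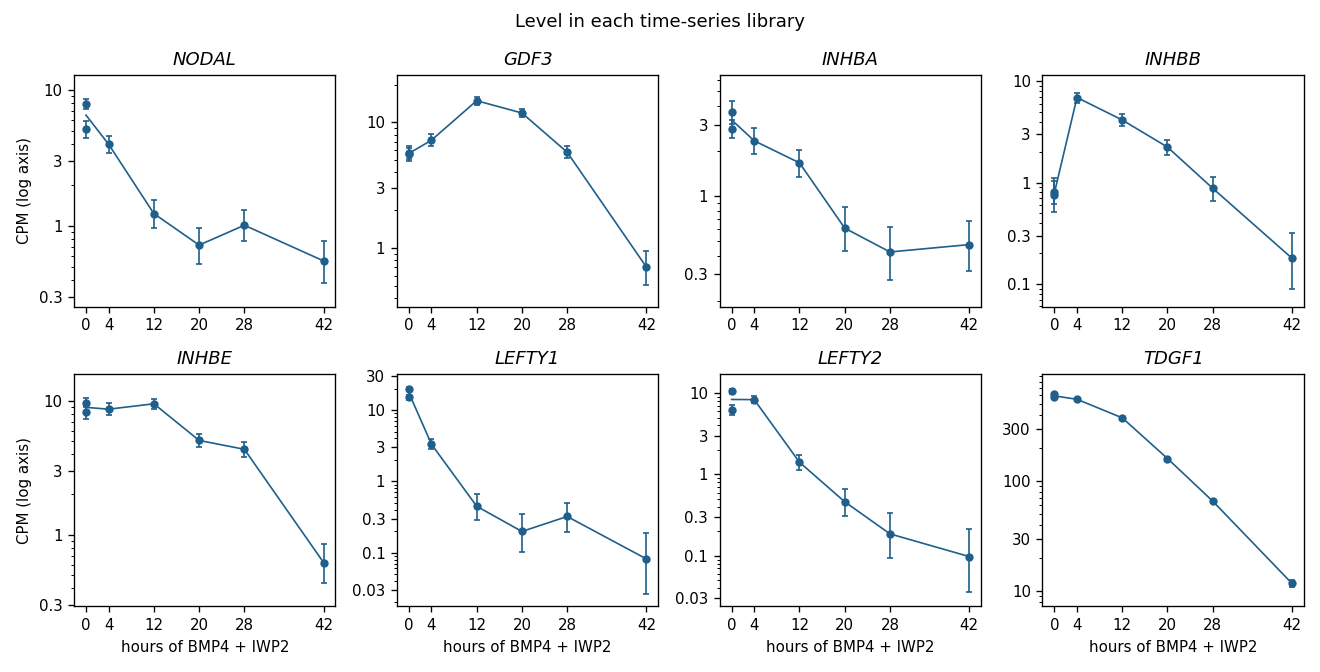
Level of each of the 8 genes in CPM (log axis, own range per panel) against hours of BMP4 with IWP2. Points are libraries with exact 95% Poisson counting intervals, and the line runs through the mean at 0 h. GDF3 peaked at 12 h with 14.9 CPM and INHBB at 4 h with 6.93 CPM, whereas LEFTY1 was already at 3.33 CPM at 4 h.

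NODAL (ENSG00000156574, GRCh38 chr10:70431936-70447951, minus strand) measured 5.14 and 7.93 CPM in the 0 h libraries, then 3.99, 1.24, 0.726, 1.02 and 0.556 CPM at 4, 12, 20, 28 and 42 h. Every later library lay below both 0 h libraries, which themselves differed 1.54-fold. NODAL fell with time, by 0.08 on the log2 scale per hour (SE 0.016, adjusted p = 0.0055, edgeR). The change at 4 h was not called (log2 -0.80, SE 0.42, adjusted p = 0.51), while at 42 h NODAL had fallen by 3.32 on the log2 scale (SE 0.51, adjusted p = 1.1e-09).

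GDF3 (ENSG00000184344, chr12:7689784-7695775, minus strand), whose product is related to Nodal and uses the same co-receptor, measured 5.69 and 5.62 CPM at 0 h and 7.21, 14.9, 11.9, 5.79 and 0.703 CPM afterwards. It was thus 2.64-fold above the 0 h mean at 12 h, near that mean at 28 h, and at 4.71% of its peak at 42 h. Because it rose and then fell, GDF3 had no called trend with hours (log2 -0.03 per hour, adjusted p = 0.43), and the slope turned to 0.02 without the 42 h library. The rise at 12 h (log2 1.36, SE 0.32, adjusted p = 0.00055, edgeR; a contrast added after the levels were seen) and the fall at 42 h (log2 -2.77, SE 0.42, adjusted p = 4.2e-10) were both called.

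INHBB (ENSG00000163083, chr2:120346136-120351803, plus strand), the beta B chain of activin B, showed the largest early rise among the members. Its level was 0.764 and 0.813 CPM at 0 h, 6.93 CPM at 4 h, 4.16 CPM at 12 h, 2.24 CPM at 20 h, 0.880 CPM at 28 h and 0.180 CPM at 42 h. The 4 h library stood 8.79-fold above the 0 h mean (log2 3.04, SE 0.43, adjusted p = 1.9e-10, edgeR), and INHBB was still raised at 12 h (log2 2.35, adjusted p = 2.0e-06). At 42 h it was below both 0 h libraries (log2 -1.89, SE 0.60, adjusted p = 0.0065). Its trend with hours was not called (adjusted p = 0.20), although DESeq2 called it (log2 -0.075 per hour, adjusted p = 0.016).

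INHBA (ENSG00000122641, chr7:41667168-41705834, minus strand), the beta A chain of activin A, showed no early rise. Its 0 h libraries held 3.64 and 2.82 CPM, and the later ones 2.34, 1.67, 0.611, 0.423 and 0.474 CPM, all below both. The trend was called (log2 -0.07 per hour, SE 0.013, adjusted p = 0.0041, edgeR), as was the fall at 42 h (log2 -2.52, SE 0.54, adjusted p = 1.8e-05). INHBE (ENSG00000139269, chr12:57452323-57459280, plus strand), the beta E chain, stayed between 8.19 and 9.70 CPM at 0, 4 and 12 h, then measured 5.07, 4.35 and 0.621 CPM. It had fallen by 3.61 on the log2 scale at 42 h (SE 0.44, adjusted p = 6.0e-15).

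The co-receptor gene TDGF1 (ENSG00000241186, chr3:46574534-46582457, plus strand) had declined far by 42 h. Its 0 h libraries held 613 and 576 CPM, and the later ones 554, 376, 160, 65.6 and 11.7 CPM, each lower than the time before. Neither 4 h (log2 -0.19, adjusted p = 0.999) nor 12 h (log2 -0.71, adjusted p = 0.28) was called, but at 42 h TDGF1 fell by 5.43 on the log2 scale (SE 0.46, adjusted p = 2.9e-30, edgeR).

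The LEFTY genes lie on the minus strand of chromosome 1, LEFTY1 (ENSG00000243709) at chr1:225886282-225911382 and LEFTY2 (ENSG00000143768) at chr1:225936598-225941383, and they did not fall at the same time. LEFTY1 went from 15.1 and 20.1 CPM at 0 h to 3.33 CPM at 4 h, 0.448 CPM at 12 h, and 0.198, 0.322 and 0.0817 CPM afterwards. It was the one member to fall at 4 h (log2 -2.48, SE 0.40, adjusted p = 5.6e-08, edgeR). LEFTY2 measured 6.22 and 10.5 CPM at 0 h and 8.32 CPM at 4 h, a value between the 0 h libraries (log2 -0.09, adjusted p = 0.999, or 0.33 with no test when set against 0 h replicate 1 alone). At 12 h LEFTY2 was at 1.42 CPM (log2 -2.61, SE 0.45, adjusted p = 3.2e-07), then at 0.462, 0.186 and 0.0980 CPM. These 2 had the largest falls at 42 h among the members, with log2 changes of -7.48 for LEFTY1 (SE 0.61, adjusted p = 3.4e-33) and -6.15 for LEFTY2 (SE 0.62, adjusted p = 1.8e-21). They rest on 5 and 6 counts at 42 h. Against a single 0 h library, log2 ratios of TMM-scaled CPM were taken with no test. Without 0 h replicate 1 these were -7.23 and -6.10, and without replicate 2 they were -6.84 and -5.37. A prior count of 2, added before taking logs, draws ratios of low counts toward 0. These ratios therefore differ from the fitted changes in method as well as in libraries.

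Counted together, 6 of the 8 members fell with hours (NODAL, INHBA, INHBE, LEFTY1, LEFTY2 and TDGF1), against 17.5% of all genes tested. None rose, against 19.2% of all genes; none had an unadjusted p under 0.05 in that direction and DESeq2 called none. Without the scaling for composition, on library totals alone, the split over all genes was 4069 fallen to 2121 risen in place of 2793 to 3072, and again 6 members fell. With log2 of the hours as the time scale the calls of TDGF1 (adjusted p = 0.062, edgeR) and INHBE (adjusted p = 0.20) were lost. At 4 h, 1 member fell, against 0.632% of genes, and 1 rose, against 4.39%. At 12 h, 3 fell (NODAL, LEFTY1 and LEFTY2), against 2.64%, and 2 rose (GDF3 and INHBB), against 7.04%. At 42 h all 8 fell, against 17.8% of genes, and none rose, against 19.9%; no member had an unadjusted p under 0.05 for a rise in edgeR, and DESeq2 called none. On library totals alone the 42 h split over all genes was 3963 to 2415 in place of 2851 to 3173, the median gene moved by -0.25 on the log2 scale, and the same 8 members fell. The median change of the members at 42 h was -3.46, beside -0.01 over all genes.

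The LDN series asked how the level of BMP signaling at 5 h related to each gene. LEFTY1 was higher, and INHBB and GDF3 lower, the more the BMP receptors were inhibited. A trend was fitted over the 5 libraries with BMP4 and IWP2, with dose steps 0 to 4 for 0, 10, 30, 100 and 300 nM, by the same edgeR test, adjusted over 14907 genes. Of the 8 members, 2 fell (INHBB and GDF3), against 10.9% of all genes, and 3 rose (LEFTY1, TDGF1 and INHBE), against 10.4%.

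**Figure D2:**
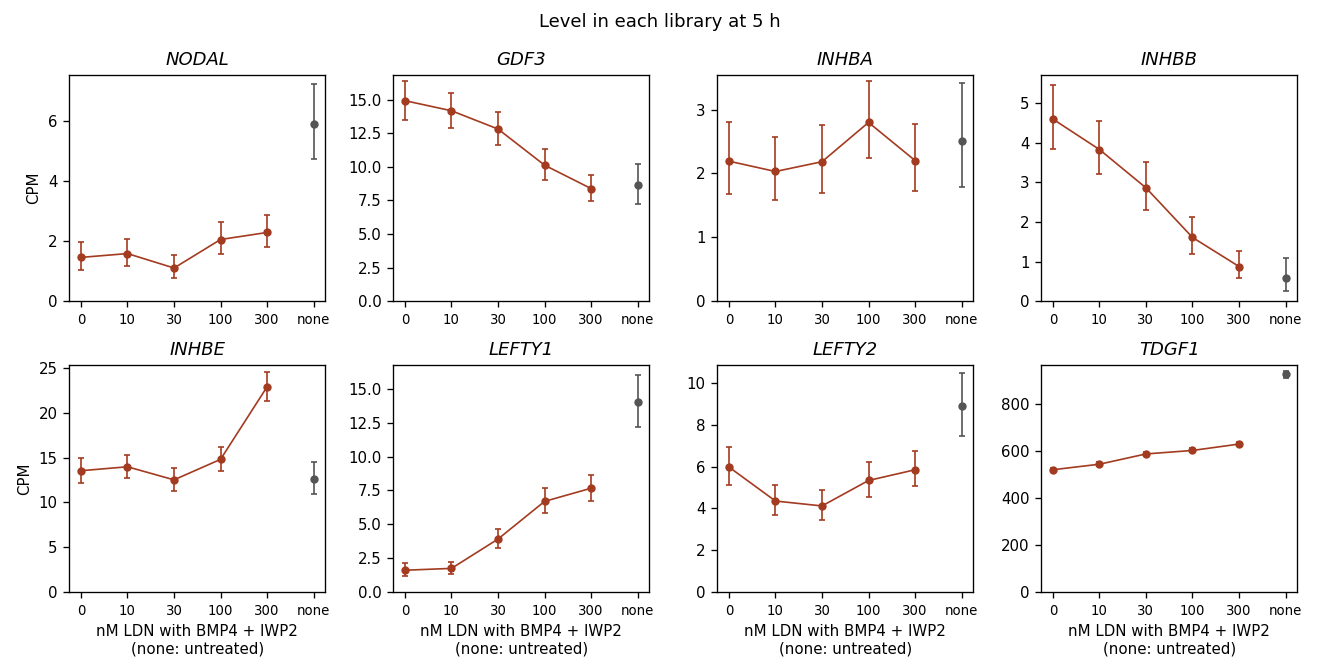
Level of each gene at 5 h in CPM (linear axis from 0, own range per panel) against LDN dose in nM with BMP4 and IWP2, and in untreated cells. Points are single libraries with exact 95% Poisson counting intervals. LEFTY1 ran from 1.60 to 7.66 CPM and INHBB from 4.59 to 0.875 CPM between 0 and 300 nM.

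INHBB measured 4.59, 3.82, 2.86, 1.61 and 0.875 CPM from 0 to 300 nM LDN, lower at every step, and 0.577 CPM (9 counts) in untreated cells. The slope was -0.56 log2 per step (SE 0.072, adjusted p = 0.00012, edgeR). GDF3 showed the same order over a smaller range, with 14.9, 14.2, 12.8, 10.1 and 8.39 CPM, beside 8.65 CPM in untreated cells, and a slope of -0.21 (SE 0.031, adjusted p = 0.00039).

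LEFTY1 ran the other way. From 0 to 300 nM it measured 1.60, 1.74, 3.90, 6.69 and 7.66 CPM, and untreated cells held 14.04 CPM. Its slope of 0.64 log2 per step (SE 0.067, adjusted p = 2.4e-05, edgeR) was the steepest of the 8. LEFTY2 showed no such order, with 5.98, 4.35, 4.12, 5.34 and 5.85 CPM and 8.91 CPM in untreated cells (slope 0.03, adjusted p = 0.78). TDGF1 rose over a narrow range, from 519 through 543, 586 and 601 to 628 CPM (slope 0.07, SE 0.0094, adjusted p = 0.00012), and stood at 926 CPM in untreated cells.

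INHBE measured 13.5, 13.97, 12.5, 14.8 and 22.9 CPM, beside 12.6 CPM in untreated cells. Its rise (slope 0.18, SE 0.047, adjusted p = 0.016, edgeR) rested on the 300 nM library. Without it the slope was 0.03 (adjusted p = 0.71), and DESeq2 did not call INHBE on all 5 libraries (adjusted p = 0.18). NODAL measured 1.46, 1.59, 1.11, 2.06 and 2.29 CPM and was not called (slope 0.18, SE 0.084, adjusted p = 0.15), although it was with the untreated library, at 5.90 CPM, added as a further step (slope 0.40, adjusted p = 0.040). INHBA stayed between 2.03 and 2.80 CPM with BMP4 and held 2.50 CPM in untreated cells (slope 0.05, adjusted p = 0.61).

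**Figure D3:**
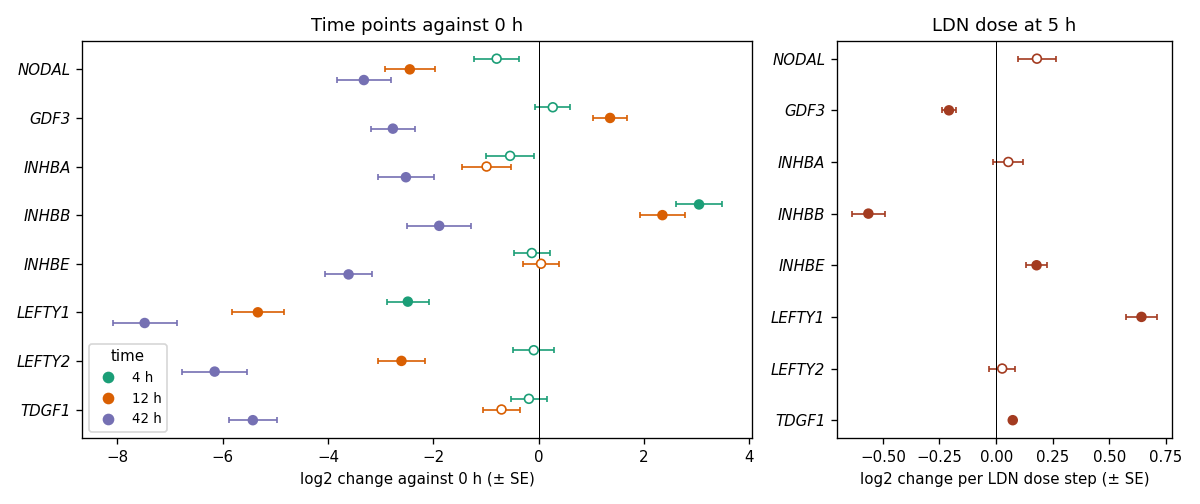
Left, log2 change of each gene at 4, 12 and 42 h against 0 h. Right, log2 change per LDN dose step at 5 h. Bars are SE and filled points have an adjusted p under 0.05 (edgeR). At 42 h all 8 genes lie left of 0, from -1.89 for INHBB to -7.48 for LEFTY1, and on the right INHBB and LEFTY1 lie farthest apart, at -0.56 and 0.64.

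The LEFTY genes differed from each other across the LDN doses. The ratio of LEFTY1 to LEFTY2, per length in FPKM, was 0.349, 0.552, 1.23, 1.62 and 1.69 from 0 to 300 nM and 2.03 in untreated cells. On CPM it went from 0.267 to 1.31, with a slope of the log2 ratio of 0.62 per step over the 5 libraries (exact permutation test over all 120 orders, two-sided, p = 0.0167, the smallest this design can give). The FPKM ratio gave a slope of 0.61 and the same p. The ratio was chosen for testing after its values were seen. In the time series the FPKM ratio was 3.09 and 2.44 at 0 h and 0.517, 0.487 and 0.378 at 4, 12 and 20 h. At 28 h it was 3.10, on the side of the 0 h libraries, and at 42 h it was 1.0. Few counts stand behind the late values, with 12 of LEFTY1 and 28 of LEFTY2 at 20 h, 19 and 11 at 28 h, and 5 and 6 at 42 h. The exact 95% counting interval of the CPM ratio was 0.193 to 0.502 at 12 h, 0.199 to 0.87 at 20 h, 0.781 to 4.02 at 28 h and 0.201 to 3.28 at 42 h.

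**Figure D4:**
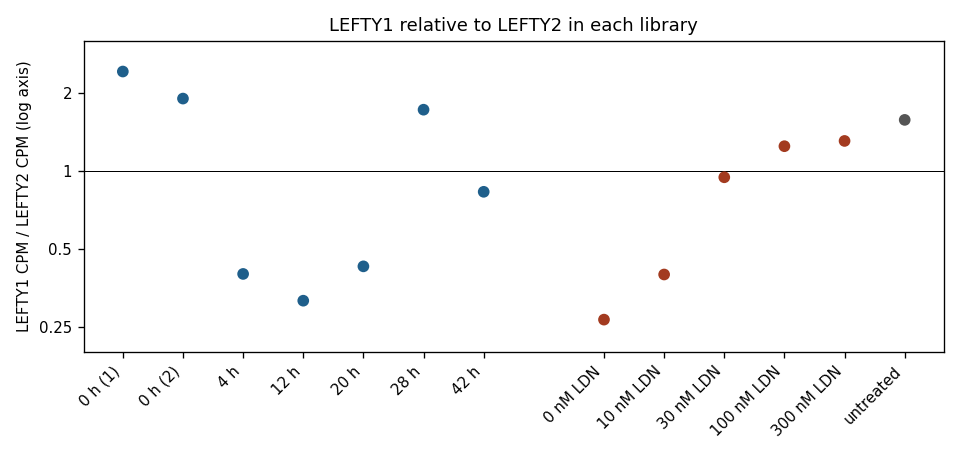
Ratio of LEFTY1 CPM to LEFTY2 CPM (log axis) in each of the 13 libraries, with time-series libraries in blue, LDN libraries in red and untreated cells in grey. In CPM the ratio is below 1 from 4 to 20 h, at 42 h and at 0 to 30 nM LDN. It is above 1 in both 0 h libraries, at 28 h, at 100 and 300 nM and in untreated cells. The counting interval of the CPM ratio includes 1 at 28 h (0.781 to 4.02), 42 h (0.201 to 3.28) and 30 nM (0.738 to 1.22). CPM is not scaled for gene length, so a ratio of 1 does not mark equal levels. Per length, in FPKM, the ratio is 1.23 at 30 nM and 1.0 at 42 h.

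Against untreated cells, 5 h of BMP4 and IWP2 without LDN left INHBB higher and NODAL and LEFTY1 lower by over 2-fold. Each group was 1 library, so no test was made, and the intervals are exact 95% counting intervals of the ratio. Over 2-fold higher was 1 of 8 members, against 6.14% of 14877 genes, and over 2-fold lower were 2 of 8, against 2.03%. INHBB was 7.96-fold the untreated level (4.07 to 17.8). NODAL was at 0.248 of it (0.168 to 0.361) and LEFTY1 at 0.114 (0.0811 to 0.157).

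The other members differed less. TDGF1 was at 0.561 of the untreated level (0.548 to 0.574), LEFTY2 at 0.672 (0.534 to 0.846) and GDF3 at 1.72 (1.42 to 2.11), whereas the intervals of INHBA (0.579 to 1.34) and INHBE (0.905 to 1.29) included 1. With 300 nM LDN, the ratio of GDF3 was 0.969 (0.786 to 1.20) and that of INHBB 1.52 (0.699 to 3.64), so neither was distinguishable from untreated cells at this depth. NODAL at 0.389 (0.283 to 0.533), LEFTY1 at 0.546 (0.454 to 0.657), LEFTY2 at 0.657 (0.526 to 0.823) and TDGF1 at 0.678 (0.664 to 0.693) were still below, beyond counting error. INHBE was then above, at 1.82 (1.56 to 2.14). The summed amnion markers came to 240.0 CPM without LDN, to 14.03 CPM with 300 nM and to 10.1 CPM without treatment, and their part in these differences was not tested.

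**Figure D5:**
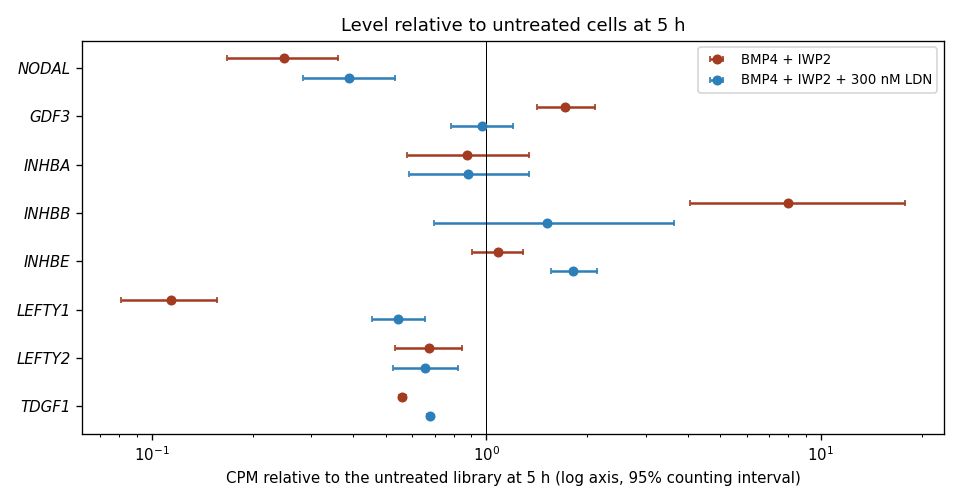
Ratio of each gene's CPM to its CPM in untreated cells (log axis) at 5 h of BMP4 and IWP2, without LDN and with 300 nM LDN. Bars are exact 95% counting intervals, with 1 library per group. INHBB is at 7.96 and 1.52, LEFTY1 at 0.114 and 0.546, and NODAL at 0.248 and 0.389.

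The upstream sequences of 3 ligand genes are shown because these genes differed most in how they moved early: INHBB had risen at 4 h and GDF3 at 12 h, when NODAL had fallen. Each is the 250 bases before a RefSeq gene start (GRCh38.p14), 5′ to 3′ on the gene's strand, for INHBB chr2:120345886-120346135 (plus), for GDF3 chr12:7695776-7696025 (minus) and for NODAL chr10:70441682-70441931 (minus). Capitals mark the motifs CAGAC (a SMAD box, GTCTG on the other strand) and GGCGCC (a GC-rich SMAD motif, the same on both strands).
INHBB: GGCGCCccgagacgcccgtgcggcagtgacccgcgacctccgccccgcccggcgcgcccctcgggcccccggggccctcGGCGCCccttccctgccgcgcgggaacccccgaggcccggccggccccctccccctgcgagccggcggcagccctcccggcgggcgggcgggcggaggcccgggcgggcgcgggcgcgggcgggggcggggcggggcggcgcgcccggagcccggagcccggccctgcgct
GDF3: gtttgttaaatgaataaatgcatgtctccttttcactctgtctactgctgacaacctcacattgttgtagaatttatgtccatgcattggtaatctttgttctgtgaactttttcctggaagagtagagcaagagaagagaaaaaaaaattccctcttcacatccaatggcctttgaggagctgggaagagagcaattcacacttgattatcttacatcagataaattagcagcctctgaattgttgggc
NODAL: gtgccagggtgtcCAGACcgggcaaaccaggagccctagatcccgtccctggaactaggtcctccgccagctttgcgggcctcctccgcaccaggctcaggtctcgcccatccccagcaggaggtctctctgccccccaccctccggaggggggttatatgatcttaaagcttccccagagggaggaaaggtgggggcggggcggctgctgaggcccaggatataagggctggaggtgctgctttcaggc
The INHBB window, 89.6% G or C, held GGCGCC at 2 places. The NODAL window, 65.2% G or C and inside the annotated NODAL gene, held CAGAC once. The GDF3 window, 38.4% G or C, held none of the motifs searched. Of 34943 such windows over all genes, 38.0% held the SMAD box, 16.4% GGCGCC and 0.707% the FOXH1 motif AATCCACA (TGTGGATT on the other strand), so the first 2 motifs are common. Windows were found for 5 members. The FOXH1 motif was in none of them, and those of INHBA and TDGF1 held none of the 3 motifs. A match is a description of the letters only.

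Some members share sequence or position with other genes, which bears on counting. Of LEFTY1's 50-base stretches, 26.8% also occur in LEFTY2, and 8.68% of its 150-base stretches do, so part of the reads could have been split between the LEFTY genes. TDGF1 shares 30.0% of its 50-base stretches with TDGF1P3, an annotated pseudogene, which held 1.64% to 2.83% of the counts of both. TDGF1P3 was at 0.566 (0.476 to 0.673) of its untreated level without LDN, beside 0.561 for TDGF1. Genes that overlap a member's exons reached at most 5.85 CPM (LRRC2, across TDGF1 on the other strand), and whether counting used strand is not given in the sources used here. Over INHBE, an opposite-strand lncRNA (ENSG00000287200) held up to 2.44 CPM, and over NODAL, an opposite-strand locus (ENSG00000280401) up to 0.896 CPM.

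Of 35 other Nodal and activin pathway genes, 24 passed the filter in the time series and moved in both directions. At 4 h, 1 fell and 4 rose; at 12 h, 2 fell and 4 rose; at 42 h, 5 fell and 6 rose; and with hours, 4 fell and 4 rose. The median change at 42 h was -0.04, beside -3.46 for the 8 members. In the dose response 5 of 23 fell and 4 rose.

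Among receptors and co-receptors, CFC1, the other co-receptor of the TDGF1 family, also rose early and fell with LDN. It measured 0.553 and 0.925 CPM at 0 h, 14.01 CPM at 4 h, 9.14 CPM at 12 h, 2.84 CPM at 20 h, 0.982 CPM at 28 h and 0.294 CPM at 42 h. The 4 h rise was 4.12 on the log2 scale (SE 0.40, adjusted p = 1.0e-22, edgeR). With LDN it measured 11.7, 8.50, 5.66, 3.44 and 1.33 CPM, beside 0.513 CPM in untreated cells (slope -0.69, SE 0.059, adjusted p = 4.2e-06), so TDGF1 and CFC1 had opposite trends with dose. ACVR1B, a type I activin receptor, rose at 42 h by 0.89 on the log2 scale (adjusted p = 0.015).

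The convertase genes, whose enzymes cut ligand precursors, had risen at 42 h. FURIN went from 60.3 and 65.8 CPM at 0 h to 185 CPM at 4 h and 404 CPM at 42 h (log2 2.92, SE 0.33, adjusted p = 1.5e-17, edgeR), and was lower with LDN (slope -0.37, adjusted p = 3.4e-08). PCSK6 had risen by 2.47 at 42 h (adjusted p = 9.8e-14). Of the other ligands, INHA, the alpha chain that makes inhibins with the beta chains, rose by 3.32 on the log2 scale at 42 h (adjusted p = 2.3e-11, edgeR). Its level went from a mean of 0.456 CPM at 0 h to 3.90 CPM. INHA averaged 1.19 CPM over the 7 libraries and passed the filter of 1 CPM only through the 42 h library. It is among the risen genes counted above at 42 h and with hours. GDF11 fell by 1.39 on the log2 scale at 42 h (adjusted p = 0.00036, edgeR). FST, follistatin, which binds activins, was the secreted antagonist called, with a log2 change of 1.51 at 42 h (adjusted p = 2.9e-06). The rise was not steady. FST averaged 12.9 CPM at 0 h, was lowest at 28 h with 5.06 CPM, and held 31.3 CPM at 42 h. Its trend with hours was not called (adjusted p = 0.23, edgeR).

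Of the transducers and nuclear partners, FOXH1 fell by 2.33 on the log2 scale at 42 h (SE 0.37, adjusted p = 4.6e-09, edgeR), SKIL by 0.97 (adjusted p = 0.020) and SMAD3 by 0.81 (adjusted p = 0.034). TGIF1, a SMAD co-repressor, fell by 1.24 at 4 h (adjusted p = 0.010, edgeR) and rose with LDN (slope 0.13, adjusted p = 2.4e-05, edgeR). At 42 h its log2 change was -0.39 (SE 0.34) and was not called. Among the targets, NANOG fell by 6.68 at 42 h (adjusted p = 1.5e-40). SMAD7, an inhibitory SMAD induced by both branches, rose by 2.32 at 4 h (adjusted p = 7.2e-11) and fell with LDN (slope -0.29, adjusted p = 4.0e-07). EOMES rose by 2.28 at 4 h (adjusted p = 0.00047) but never exceeded 3.52 CPM.

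Across the 13 libraries, with each experiment centred on its own mean of log2(CPM + 0.5), the pairs NODAL and LEFTY1 (r = 0.940), INHBA and LEFTY2 (r = 0.934) and INHBE and TDGF1 (r = 0.921) had the most similar profiles among the members, and INHBB and LEFTY1 the least similar (r = -0.268). These are descriptions, given with no test, since all points share libraries and the 42 h library is low for every member. Among 11313 genes averaging 5 CPM or more in both experiments, the nearest profiles were AXIN2 (r = 0.985) and VSNL1 (r = 0.978) to LEFTY1, ACOXL (r = 0.991) and RASGRP2 (r = 0.976) to LEFTY2, BUB3 (r = 0.975) and STAC (r = 0.965) to NODAL, and TDGF1P3 (r = 0.997) and TUBB4A (r = 0.996) to TDGF1. For the remaining ligands they were USP28 and HTR7 (both r = 0.974) to GDF3, CNTNAP2 and MAML2 (both r = 0.985) to INHBA, INPP4A (r = 0.978) to INHBB, and MPP2 (r = 0.968) and ENSG00000255330 (r = 0.967) to INHBE.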

How the data were processed

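RNA from 13 libraries of GFP::SMAD4 RUES2 cells was sequenced by the study. Per the methods and labels, Cutadapt trimming, STAR 2.7.8a mapping (GRCh38) and RSEM 1.3.3 quantification came first, and the authors deposited expected counts, not scaled for depth, and FPKM, scaled for length and depth. The expected counts are whole numbers as deposited, so the rounding applied before the tests left them unchanged. FPKM served to compare levels between genes.

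CPM on library totals was computed from the counts. Tests used edgeR 4.0.16 in R 4.3.3 (TMM, quasi-likelihood, Benjamini-Hochberg at 0.05, mean of at least 1 CPM), with DESeq2 1.42.0 as an alternative, and were tested on simulated data. Intervals and profiles used scipy 1.17.1, pandas 2.3.3 and numpy 2.4.6 in Python 3.11.15, and figures matplotlib 3.10.9. Groups came from the sample labels.

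Named were the 8 members, up to 3 called pathway genes with the largest change per subgroup, the 2 nearest profiles of each member, and copies or overlapping genes. The members and lists were chosen with earlier results of these data known. Gene positions are from GENCODE and upstream sequences from RefSeq (GRCh38.p14). Alternatives covered scaling, the filter on low counts, the test, left-out libraries, and the time and dose scales. SMAD4 imaging values were not used here. A nearest profile and an overlapping gene are not reported here.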

Additional observations from a re-analysis of the deposited data

Results flagged for a closer look

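INHBE is listed because its early change had opposite signs in the experiments. After TMM scaling, the 4 h library lay below both 0 h libraries (log2 -0.13 against their mean), whereas 5 h of BMP4 with IWP2 and no LDN lay 0.02 above untreated cells on the log2 scale. The 4 h change was not called (SE 0.34). On library totals the counting interval of the 5 h ratio, 0.905 to 1.29, included 1, so neither sign was established. The difference was not tested, and each of the changed groups was 1 library. On library totals the 4 h value of 8.67 CPM lay between the 0 h values of 8.19 and 9.70 CPM.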

How the results depend on the processing

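No called change of a member turned its sign under any alternative run. Of the values not called, 6 did: the GDF3 trend with hours was 0.024 per hour without the 42 h library and 0.036 per unit with log2 of the hours, LEFTY2 at 4 h ranged from -0.41 to 0.33 and INHBE at 12 h from -0.063 to 0.16 with either 0 h replicate left out, and the LEFTY2 slope with LDN was -0.0010 without the 10 nM library and -0.052 without the 300 nM library. INHBA without LDN over untreated cells, a log2 ratio of -0.19, was 0.05 on FPKM, within its counting interval. Over all genes, library totals alone turned the majority of calls from risen to fallen, with 4069 fallen to 2121 risen for hours and 3963 to 2415 at 42 h. The number of genes called changed by over 1.5 times in 6 cases, each a count over all genes. For the trend with hours, 5865 genes became 3259 without the 42 h library and 3413 with log2 of the hours; leaving out either 0 h replicate gave 4316 to 6602. By DESeq2, 802 genes at 4 h became 455, and 1547 at 12 h became 971. For the LDN trend, 3180 genes became 1978 without the 0 nM library and 2102 without the 300 nM library. On CPM in place of FPKM, the ratio of LEFTY1 to GDF3 at 0 h was 3.11 in place of 2.22. Of 314 further values for single genes under the alternatives, 296 kept their direction and side of the threshold or, where no test was made, moved by less than their error. The other exceptions not yet given were INHBE with LDN, not called with log2 of the dose (adjusted p = 0.056, edgeR) or with untreated cells added (adjusted p = 0.35), and TDGF1 without LDN over untreated cells, with a log2 ratio of -0.92 after TMM scaling and -0.95 on FPKM. The causes were not tested. Leaving out a 0 h replicate left the single-time comparisons with no residual degrees of freedom, so these gave ratios with no count of calls. No paired analysis was possible because no groups compared share 2 replicate numbers. The 12 h comparison and the summed TDGF1 and TDGF1P3 counts were added after the data were seen. No time after 0 h and no dose had a replicate, and levels near 0.1 CPM, such as those of the LEFTY genes at 42 h, rest on few counts.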
